A study of Mus musculus with 15 samples.

Results

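The lung comparison of a leptin-neutralizing antibody with control IgG was made on 6 of the 15 RNA libraries of the series, all those whose labels give lung as the tissue. They were 3 libraries from bleomycin-treated mice given the leptin antibody (LepL) and 3 from bleomycin-treated mice given control IgG (IgGL). The mice were WT, and the methods of the study describe male C57Bl/6 animals 12 weeks old, which received a single intratracheal dose of bleomycin at 1.5 units/kg and then, from the following day, LepAb (hLep3) or control IgG intraperitoneally every other day at 10 mg/kg until they were euthanized at day 14. Both groups therefore carried the bleomycin injury and an injected antibody. No lung of a vehicle-treated mouse was analysed here, so no value below says how far a gene stood from the uninjured lung. Nothing in the labels says that animals were pooled, and a library was taken as 1 mouse. If libraries of a group were not separate animals, the p-values measure only the spread between these samples.

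Bleomycin damages the alveolar epithelium, and in mice the injury is followed by inflammation and then by a phase in which fibroblasts deposit fibrillar collagen, fibronectin and other matrix proteins. Alveolar type 2 cells, which make surfactant, are the progenitors that restore the alveolar lining, while recruited macrophages and neutrophils shape the course of the repair. Leptin is a hormone of fat tissue that signals through its receptor LEPR and the JAK2-STAT3 pathway, and the study asked whether its neutralization changed the fibrotic response of the lung.

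RNA was poly(A)-selected from whole lung and sequenced without keeping the strand. Per library 29974718 to 38924788 reads were counted on genes, so that 1 read was worth 0.0257 to 0.0334 CPM, the unit of read counts scaled to a common library size. Surfactant protein C, the defining transcript of alveolar type 2 cells, was abundant in all 6 libraries, as the lung label requires. Of 56748 genes listed, 19617 passed the filter on low counts and were tested. Calls required a log2 fold change beyond 0.5 in either direction together with an adjusted p under 0.05, as the study set them, and "rose" and "fell" are used only for called genes. Adjusted p-values are from edgeR's quasi-likelihood test with Benjamini-Hochberg adjustment over all genes tested. A value set before an adjusted p in parentheses is the log2 fold change of LepL against IgGL. Levels are CPM normalized by TMM factors, given in the order of replicates 1, 2 and 3, and with whole-lung RNA a smaller number of cells cannot be told apart from less RNA per cell.

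In LepL 463 genes fell and 349 rose, which is 2.36% and 1.78% of the genes tested and 4.14% together. Each count of list members below is to be read beside these shares. The genes that fell had a median log2 fold change of -1.0 and those that rose one of 1.08. Library measures differed between the groups too. Mitochondrial transcripts took 1.19% to 1.61% of the reads in IgGL and 1.84% to 2.09% in LepL, and the 10 most abundant genes 4.59% to 5.16% and 6.96% to 7.72%, without overlap, and their part in the results was not tested. In each of the 812 genes the 3 LepL libraries lay on one side of the 3 IgGL libraries. Of all genes tested, 17.3% had all LepL libraries below all IgGL libraries and 16% had them above. One IgGL library stood nearer to LepL than its companions. On the first principal component (63.3% of the variance) IgGL replicate 1 lay at -0.24, the other IgGL libraries at 34.7 and 53.4, and the LepL libraries between -39.7 and -21.5. It was the lowest of the IgGL libraries in 416 of the 463 genes that fell and the highest of them in 282 of the 349 that rose.

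The number of calls depended on each library. Without IgGL replicate 1, edgeR called 1602 genes lower and 1937 higher, among them 461 of the 463 and 348 of the 349. Without any 1 of the other libraries it called at most 4 lower and 18 higher, and none in either direction once the IgGL library numbered 2 or the LepL library numbered 2 or 3 was removed, where 1778, 1979 and 1585 genes were higher and 1911, 2090 and 1816 lower at an unadjusted p under 0.05. All 463 and all 349 genes kept their direction in each of these 6 fits, in which their medians ranged from -1.14 to -0.89 and from 0.935 to 1.23. They had been selected on those libraries, so this is a description. DESeq2 on all 6 libraries called 1089 lower and 1205 higher.

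**Figure D1:**
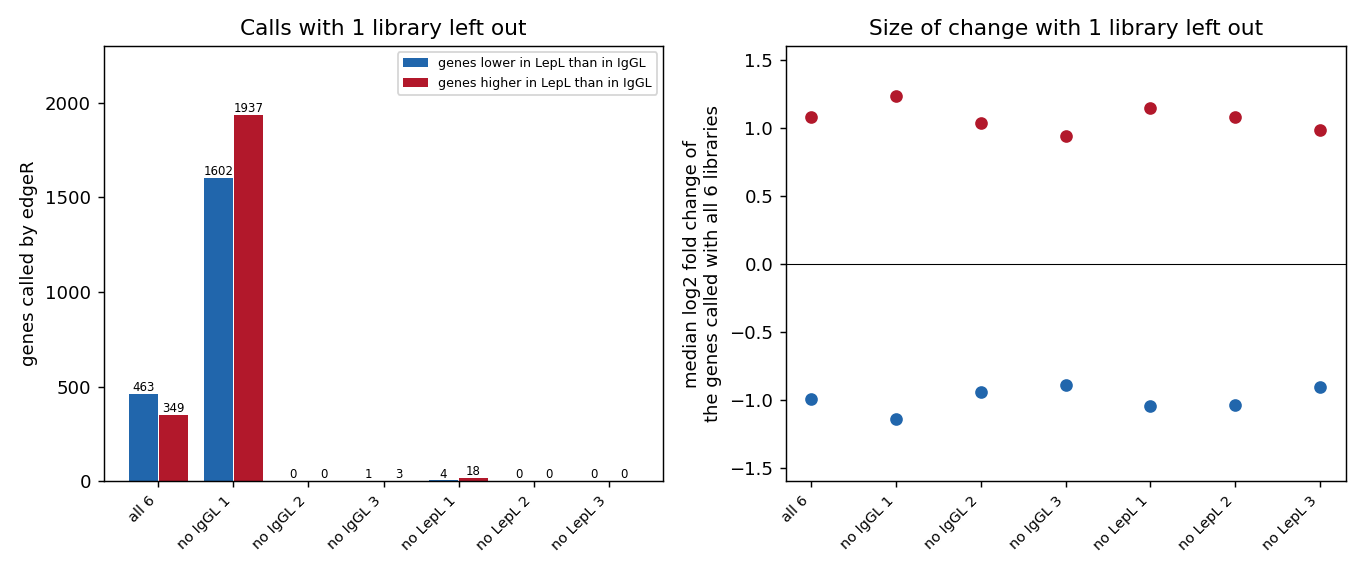
Left, the number of genes edgeR called lower (blue) and higher (red) in LepL than in IgGL with all 6 libraries and with each library left out. Right, the median log2 fold change of the 463 and 349 genes called with all 6 libraries in the same fits; the counts run from 0 to 1937, while the medians stay between -1.14 and -0.89 and between 0.935 and 1.23.

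**Figure D2:**
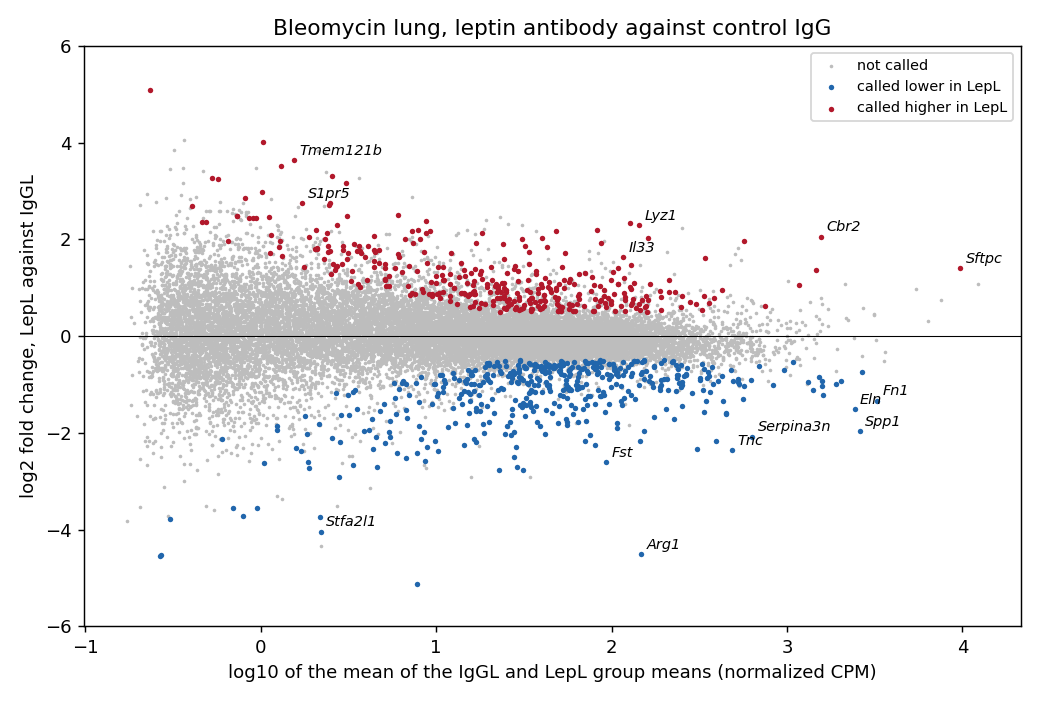
Each point is a tested gene, with its mean level in normalized CPM on a log10 scale (x axis) against the log2 fold change of LepL against IgGL (y axis). Genes called lower are blue and genes called higher are red, with selected genes labelled; *Rag1*, which had no read in IgGL, is not drawn.

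Transcripts of the interstitial matrix were lower in LepL. Of the 11 fibrillar collagen genes tested, 6 fell and 0 rose, beside 2.36% and 1.78% of all genes tested. Their median log2 fold change was -1.02 against 0.00 over all genes. *Col1a1* (ENSMUSG00000001506, chromosome 11, 94827050 to 94843868, GRCm39), which encodes the main chain of type I collagen, had 2117, 2392 and 2223 normalized CPM in IgGL and 1133, 1104 and 676 in LepL (log2 fold change -1.21, standard error 0.20, adjusted p = 0.0327). *Col3a1*, the chain of type III collagen, had 2198, 2598 and 2754 normalized CPM in IgGL and 1526, 1212 and 1073 in LepL (log2 fold change -0.99, standard error 0.17, adjusted p = 0.0327). The 3 LepL libraries were below the 3 IgGL libraries for both genes, and LepL replicate 3 was the lowest of all. *Col1a2* fell with them (log2 fold change -1.02, standard error 0.18, adjusted p = 0.0332).

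The minor fibrillar chains of type V, which regulate the diameter of collagen fibrils, fell too. *Col5a3* went from 46.5, 125 and 176 normalized CPM in IgGL to 30.1, 28.2 and 18.5 in LepL (log2 fold change -2.18, standard error 0.42, adjusted p = 0.036), *Col5a1* had a log2 fold change of -1.56 and *Col5a2* one of -1.30. IgGL replicate 1 had the lowest *Col5a3* of its group, still above every LepL library. Of the 5 members that were not called, *Col27a1* had 38.9, 44 and 41.8 normalized CPM in IgGL and 34.2, 30.3 and 36.6 in LepL, without overlap (-0.30, adjusted p = 0.127). Summed over the list, IgGL libraries held 7434, 8991 and 8599.7 normalized CPM and LepL libraries 4508, 4040.0 and 2988, and the sums did not overlap.

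Basement membrane genes differed by chain. Of 23 tested, 10 fell, beside 2.36% of all genes tested, and 0 rose (median -0.56). The ubiquitous type IV chain *Col4a1* had 2309, 2823 and 2888 normalized CPM in IgGL and 1609.5, 1523 and 1092 in LepL (log2 fold change -0.92, standard error 0.18, adjusted p = 0.0372), and *Col4a2* fell by 0.93 on the log2 scale. *Col4a1* and *Col4a2* are neighbours whose annotated positions overlap. The chain *Col4a3*, which belongs to the specialised network of the alveolar wall, had 268, 257 and 142 normalized CPM in IgGL and 289, 301 and 213 in LepL with overlapping groups (0.27, adjusted p = 0.498). Among laminins, *Lamb1* (-1.12, adjusted p = 0.0327) and *Lama2* (-1.01, adjusted p = 0.0327) fell, as did *Col15a1* (-1.11, adjusted p = 0.0327), which links basement membranes to the matrix below.

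In the remaining collagens 5 of 20 genes fell, beside 2.36% of all genes tested, and 0 rose (median -0.28). The microfibrillar *Col6a3* had 376, 798 and 862 normalized CPM in IgGL and 238, 236 and 199 in LepL (log2 fold change -1.6, standard error 0.28, adjusted p = 0.0327). *Col7a1*, whose product forms anchoring fibrils, had a log2 fold change of -1.61 and the transmembrane collagen *Col23a1* one of -1.23. For *Col6a3*, IgGL replicate 1 was well below its companions and above all LepL libraries. *Col12a1* (-0.59, adjusted p = 0.0726) and *Col8a1* (-0.42, adjusted p = 0.137) were not called.

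Enzymes that hydroxylate, trim or crosslink collagen were lower as well (median -0.39). Of 26 genes 11 fell, beside 2.36% of all genes tested, and 0 rose. *Lox* (lysyl oxidase), which starts the crosslinking of collagen and elastin, had 439, 784 and 796 normalized CPM in IgGL and 231, 292 and 139 in LepL (log2 fold change -1.61, standard error 0.30, adjusted p = 0.035). All 4 of its paralogs fell too, *Loxl1* by 0.88, *Loxl2* by 1.04, *Loxl3* by 1.08 and *Loxl4* by 1.20 on the log2 scale. The prolyl hydroxylase subunit *P4ha3* (-1.56, adjusted p = 0.0327), the procollagen N-proteinase *Adamts14* (-1.49, adjusted p = 0.0457) and the collagen chaperone *Fkbp10* (-1.12, adjusted p = 0.0327) fell. *Plod2*, a lysyl hydroxylase of collagen telopeptides, had 85.5, 80.7 and 82.2 normalized CPM in IgGL and 90.5, 90.0 and 81.8 in LepL, with overlapping groups and a log2 fold change of 0.08 (adjusted p = 0.618).

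Fibronectin and matricellular genes gave 8 of 21 that fell and 1 that rose, beside 2.36% and 1.78% of all genes tested (median -0.68). *Fn1*, which encodes fibronectin, had 3783, 5214 and 5005 normalized CPM in IgGL and 2167, 2147 and 1218 in LepL (log2 fold change -1.34, standard error 0.24, adjusted p = 0.0337). *Tnc* (tenascin C), a glycoprotein of wounds, had 312, 684 and 1442 normalized CPM in IgGL and 207, 154 and 115 in LepL (log2 fold change -2.36, standard error 0.48, adjusted p = 0.0391). The IgGL libraries spread more for *Tnc* than for *Fn1*, and for both the 2 groups did not overlap. *Fbln2* (-1.91, adjusted p = 0.0327), which encodes fibulin 2, also fell. *Thbs3* was the member that rose (0.99, adjusted p = 0.0342).

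Not all genes tied to fibrosis were called. The matricellular *Postn*, which is made by activated fibroblasts, had 342, 323 and 346 normalized CPM in IgGL and 256, 288 and 266 in LepL (log2 fold change -0.32, adjusted p = 0.0926). *Ccn2*, encoding connective tissue growth factor, had 551, 648 and 647 normalized CPM in IgGL and 405, 456 and 276 in LepL (-0.70, adjusted p = 0.0611). For both, all LepL libraries were below all IgGL libraries. *Cthrc1*, a marker of fibroblasts in fibrotic foci, had 23.4, 19.4 and 9.51 normalized CPM in IgGL and 17, 19.3 and 11.6 in LepL, and its groups overlapped (-0.13, adjusted p = 0.829).

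Elastic fibre genes gave 4 of 15 that fell and 1 that rose, beside 2.36% and 1.78% of all genes tested (median -0.49). *Eln*, the elastin gene, had 3504, 4595 and 2690.0 normalized CPM in IgGL and 1389, 1551 and 832 in LepL (log2 fold change -1.52, standard error 0.27, adjusted p = 0.0336). *Fbn1*, the core of microfibrils, fell by 1.34 (adjusted p = 0.0327) and the glycoprotein gene *Emilin1* by 0.98. *Efemp1*, which encodes fibulin 3, rose (1.21, adjusted p = 0.0497). Among 13 proteoglycan genes only biglycan (*Bgn*, -0.84, adjusted p = 0.036) was called. Decorin (*Dcn*) had 167, 217 and 143 normalized CPM in IgGL and 177, 186 and 224 in LepL with overlapping groups, and versican (*Vcan*) had 37.3, 78.5 and 178 normalized CPM in IgGL and 34.9, 26 and 23.7 in LepL and was not called (-1.80, adjusted p = 0.0608).

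Proteases and their inhibitors were lower in LepL. Of 23 genes 9 fell and 0 rose, with a median of -1.0. In 16 of the 23 the LepL libraries lay below the IgGL libraries, beside 17.3% of all genes tested. *Timp1*, an inhibitor of metalloproteinases that is induced in injury, had 208, 411 and 911 normalized CPM in IgGL and 120.3, 113 and 71.2 in LepL (log2 fold change -2.33, standard error 0.47, adjusted p = 0.0387). *Timp3*, an inhibitor that binds to the matrix, had 519, 521 and 412 normalized CPM in IgGL and 409, 506 and 336 in LepL and was not called (-0.22, adjusted p = 0.447). The aggrecanase *Adamts4* (-2.50, adjusted p = 0.0354), the disintegrin protease *Adam12* (-2.03, adjusted p = 0.0444) and *Mmp19* (-1.43, adjusted p = 0.0499) fell, and so did the collagenase *Mmp8* (-1.44, adjusted p = 0.0354), which neutrophils carry. The macrophage elastase *Mmp12* had 274, 137 and 40.7 normalized CPM in IgGL and 192, 243 and 107 in LepL, with overlapping groups (0.26, adjusted p = 0.8).

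**Figure D3:**
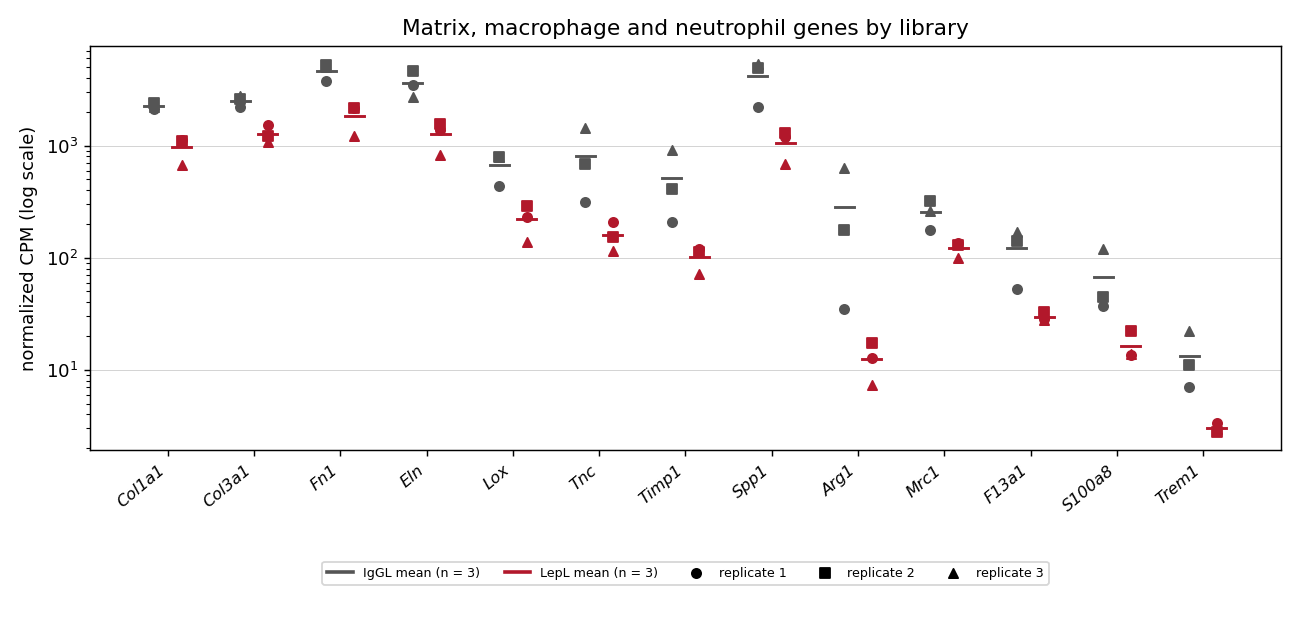
Normalized CPM (y axis, log scale) of 13 matrix, macrophage and neutrophil genes in each IgGL (grey) and LepL (red) library, with the mean of 3 libraries as a bar and the replicate number as the symbol. The LepL libraries lie below the IgGL libraries for each gene shown, and IgGL replicate 1 is the lowest of its group for each of them but *Eln*.

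Within the TGF-beta axis, 6 of 24 genes fell, beside 2.36% of all genes tested, and 0 rose (median -0.26). The ligand *Tgfb1* had 108, 126 and 154 normalized CPM in IgGL and 107, 88.2 and 83.7 in LepL, without overlap and not called (-0.48, adjusted p = 0.085). The activin subunit *Inhba* fell (-1.78, adjusted p = 0.0471), and so did both secreted activin antagonists on the list, *Fst* (follistatin), from 64.2, 161 and 254 to 29.4, 33.3 and 16.3 normalized CPM (log2 fold change -2.60, standard error 0.46, adjusted p = 0.0327), and *Fstl3* (-1.0, adjusted p = 0.0354). *Tgfbi*, a target gene of the pathway, fell by 1.35 and the receptor *Tgfbr2* by 0.71 on the log2 scale. The signal transducer *Smad4* had 85.3, 90.9 and 106 normalized CPM in IgGL and 76.2, 84.4 and 76.5 in LepL and was not called (-0.25, adjusted p = 0.18). The members that fell included a ligand subunit, inhibitors and targets, without a call for *Tgfb1* itself.

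Markers of the cells that make matrix did not move as a block. Activated fibroblast markers gave 5 of 13 that fell and 0 that rose (median -0.69), among them the BMP antagonist *Grem1* (-1.59, adjusted p = 0.0392), the Wnt modulator *Sfrp1* (-1.11, adjusted p = 0.0327) and the PDGF receptor *Pdgfra* (-0.90, adjusted p = 0.0327). *Tnc*, *Adam12* and *Postn* are on this list and on a matrix list as well. Of 12 alveolar fibroblast markers 0 were called (median 0.40), beside 4.14% of all genes tested. Of 9 adventitial fibroblast markers *Dpp4* rose (1.22, adjusted p = 0.0444) and *Pla1a* (-2.29, adjusted p = 0.0327) and *Cd248* (-0.94, adjusted p = 0.0327) fell. Pericyte genes fell in 3 of 7, including *Pdgfrb*, with 201, 213 and 182 normalized CPM in IgGL and 106, 115 and 103 in LepL (log2 fold change -0.88, standard error 0.10, adjusted p = 0.0327).

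*Acta2*, the actin of smooth muscle and of myofibroblasts, had 309, 299 and 412 normalized CPM in IgGL and 177, 218 and 188 in LepL (log2 fold change -0.81, standard error 0.15, adjusted p = 0.035). It was the only one of 12 contractile genes to be called (median 0.04). The mesothelial genes *Upk3b* (1.46, adjusted p = 0.0327), *Muc16* (1.35, adjusted p = 0.0327) and *Lrrn4* (0.91, adjusted p = 0.0327) rose, 3 of 6, while mesothelin (*Msln*) had 260.2, 425 and 380.0 normalized CPM in IgGL and 296, 302 and 287 in LepL and was not called. The mesothelium covers the outside of the lung, and its RNA was measured with the rest.

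Macrophage markers differed by list. Interstitial macrophage markers gave 7 of 16 that fell and 0 that rose (median -0.86). In 12 of the 16 the LepL libraries lay below the IgGL libraries, beside 17.3% of all genes tested. *Mrc1*, the mannose receptor CD206, had 176, 321 and 264 normalized CPM in IgGL and 135, 130.4 and 99.9 in LepL (log2 fold change -1.06, standard error 0.21, adjusted p = 0.0388). *F13a1*, the A chain of coagulation factor XIII, had 53, 142 and 171 normalized CPM in IgGL and 28.4, 32.6 and 27.9 in LepL (log2 fold change -2.04, standard error 0.36, adjusted p = 0.0327), and the scavenger receptor *Cd163* fell by 1.63 (adjusted p = 0.0479). For *Mrc1*, *F13a1* and *Cd163*, IgGL replicate 1 was the lowest of its group. The complement gene *C1qa* had 369, 466 and 383 normalized CPM in IgGL and 296, 259.8 and 198 in LepL, without overlap and just short of the threshold (-0.69, adjusted p = 0.0503).

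Of the 13 markers of matrix-associated macrophages 3 fell and 0 rose (median -0.64). *Spp1*, which encodes osteopontin, had 2200.3, 4902 and 5314 normalized CPM in IgGL and 1194, 1305 and 681 in LepL (log2 fold change -1.97, standard error 0.36, adjusted p = 0.0337). *Arg1* (ENSMUSG00000019987, chromosome 10, 24791119 to 24803382), the arginase of alternatively activated macrophages, had 35.2, 178 and 633 normalized CPM in IgGL and 12.8, 17.2 and 7.31 in LepL (log2 fold change -4.51, standard error 0.90, adjusted p = 0.0386), the largest fall among the named genes. Its IgGL libraries differed widely among themselves, and the lowest of them, replicate 1, was still above the highest LepL library. *Gpnmb*, another marker of these cells, had 229, 238 and 169 normalized CPM in IgGL and 231, 185 and 129.7 in LepL with overlapping groups (-0.22, adjusted p = 0.535). The lipid receptor gene *Trem2* was not called (-0.76, adjusted p = 0.055).

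Alveolar macrophage markers went both ways (median 0.55). Of 14 genes 1 rose, beside 1.78% of all genes tested, and 0 fell. The scavenger receptor *Marco* had 6.62, 24.8 and 43.4 normalized CPM in IgGL and 18.7, 8.68 and 16.4 in LepL, with overlap (-0.77, adjusted p = 0.405), and the chitinase-like *Chil3* had 392, 745 and 999 normalized CPM in IgGL and 342, 396 and 301 in LepL, with overlap (-1.04, adjusted p = 0.0696). Summed CPM of the list was 949, 1168 and 1387 in IgGL and 1005, 992 and 825 in LepL, which overlapped. The lectin *Siglecf* had 4.57, 2.86 and 3.43 normalized CPM in IgGL and 7.02, 6.28 and 7.46 in LepL, all LepL libraries above all IgGL libraries (0.93, adjusted p = 0.058), and the nuclear receptor *Pparg* had 11.1, 8.25 and 8.61 normalized CPM in IgGL and 10.9, 11.1 and 10.9 in LepL with overlap. The member that rose, *Cidec* (1.29, adjusted p = 0.0327), is a lipid droplet gene that is also on the adipocyte list. Monocyte genes were mixed. The Fc receptor *Fcgr1* (-1.28, adjusted p = 0.0441) and *Ace* (-0.70, adjusted p = 0.0395), which endothelial cells also express, fell, *Treml4* rose (1.43, adjusted p = 0.0395), and the chemokine receptor *Ccr2* had 143, 101 and 87.8 normalized CPM in IgGL and 125, 102 and 93.1 in LepL with overlapping groups (-0.05, adjusted p = 0.883).

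Neutrophil genes had the lowest median of the lists, -1.53. Of 16 genes 8 fell, beside 2.36% of all genes tested, and 0 rose. *S100a8*, a subunit of calprotectin, had 37, 44.3 and 119.6 normalized CPM in IgGL and 13.5, 22.1 and 13.9 in LepL (log2 fold change -2.02, standard error 0.43, adjusted p = 0.0403), and its partner *S100a9* fell by 1.79. *Retnlg* (-2.18, adjusted p = 0.0327), *Trem1* (-2.13, adjusted p = 0.0337), an amplifying receptor of myeloid cells, and the integrin *Itgam* (-1.59, adjusted p = 0.0429) fell. Summed over the list, IgGL libraries held 316, 369 and 852 normalized CPM and LepL libraries 174, 199 and 165. IgGL replicate 3 had by far the highest sum, and without it the median was -1.13. *Il1r2*, the decoy receptor for IL-1, had 6.45, 13.5 and 63.6 normalized CPM in IgGL and 2.97, 3.77 and 4.23 in LepL and was not called (-2.92, adjusted p = 0.0561).

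Signals that recruit these cells were called singly. Of the monocyte and eosinophil chemokines and receptors 3 of 15 fell and 0 rose (median -0.28). *Ccl2*, the ligand that draws CCR2-positive monocytes, had 19.5, 42.9 and 56.8 normalized CPM in IgGL and 14.7, 10.1 and 8.29 in LepL (log2 fold change -1.85, standard error 0.37, adjusted p = 0.0381). *Ccl7* (-1.20, adjusted p = 0.0391) and the receptor *Ccr1* (-1.39, adjusted p = 0.0327) fell. Among 8 neutrophil-attracting genes 0 fell, beside 2.36% of all genes tested, so that this count is near the background (median -0.75, range -2.67 to 1.52). DESeq2 called 2 of them lower, and the fit without IgGL replicate 1 called 3, beside 1089 of 18620 and 1602 of 20435 genes. *Cxcl5* had 2.41, 2.33 and 4.69 normalized CPM in IgGL and 1.86, 0.701 and 0.68 in LepL (-1.55, adjusted p = 0.0893). *Cxcl1* had 3.10, 8.0 and 4.52 normalized CPM in IgGL and 3.56, 3.56 and 2.77 in LepL (-0.66, adjusted p = 0.257). The 2 that rose were *Ppbp* (1.52, adjusted p = 0.0327), a platelet gene, and *Cxcl15* (1.05, adjusted p = 0.0391), which alveolar type 2 cells make. Of 13 lymphocyte chemokine genes 0 were called, beside 4.14% of all genes tested.

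Among cytokines, 1 of 12 genes of the IL-6 family fell, beside 2.36% of all genes tested, and 0 rose. *Lif* had 43.4, 48.5 and 75.5 normalized CPM in IgGL and 33.1, 29.2 and 24 in LepL (log2 fold change -0.96, standard error 0.21, adjusted p = 0.0444). *Il6* had 5.07, 5.50 and 15 normalized CPM in IgGL and 4.08, 2.72 and 2.57 in LepL (-1.45, adjusted p = 0.0787) and *Il11* 4.21, 10.1 and 31.4 normalized CPM in IgGL and 1.50, 2.75 and 2.65 in LepL (-2.72, adjusted p = 0.0513), both without overlap and not called. Of 16 genes of the IL-1 family and the inflammasome, the sensor *Nlrp3* fell (-0.85, adjusted p = 0.0454) and the epithelial alarmin *Il33* rose, from 93.9, 36.9 and 38.7 to 191, 148 and 188 normalized CPM (log2 fold change 1.64, standard error 0.33, adjusted p = 0.0391). *Il1b* had 20.3, 12 and 40.6 normalized CPM in IgGL and 13.1, 17.8 and 10.6 in LepL, with overlap (-0.81, adjusted p = 0.216). Of 14 acute phase and secreted defence genes 4 fell and 1 rose. *Serpina3n*, a secreted protease inhibitor, had 752, 1193 and 1123 normalized CPM in IgGL and 251, 316 and 160.0 in LepL (log2 fold change -2.08, standard error 0.27, adjusted p = 0.0327), and serum amyloid *Saa3* fell by 2.16 (adjusted p = 0.0444), while *Lcn2* (lipocalin 2) had 517, 353 and 648 normalized CPM in IgGL and 594, 502 and 432 in LepL with overlap (0.01, adjusted p = 0.983).

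Of 17 genes of the leptin receptor and its signalling, 0 were called (median -0.09, range -0.50 to 0.75). Over all genes tested 4.14% were called, so that 0 of 17 is near the background and not a result about the pathway. *Lepr* had 52, 41.7 and 33.3 normalized CPM in IgGL and 52.7, 70.1 and 77.2 in LepL (log2 fold change 0.65, standard error 0.19, adjusted p = 0.0721), with LepL replicate 1 barely above IgGL replicate 1. *Socs3*, the feedback inhibitor that leptin and IL-6 cytokines induce through STAT3, had 217, 267 and 263 normalized CPM in IgGL and 229, 152 and 151 in LepL, with overlap (-0.49, adjusted p = 0.118). *Stat3* had 345, 419 and 418 normalized CPM in IgGL and 318, 288 and 289.7 in LepL (-0.40, adjusted p = 0.0774). Leptin itself was not tested, with 10, 7 and 18 reads in IgGL and 0, 21 and 11 in LepL, too few to show a difference at this depth. Without IgGL replicate 1, 2 of the 17 were called higher and 3 lower, and DESeq2 called 2 higher and 0 lower. Over all genes those fits called 1937 higher and 1602 lower of 20435, and 1205 higher and 1089 lower of 18620.

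The promoters of the called genes were compared with those of all genes, since STAT3 and AP-1 act on injury genes through known DNA motifs. RefSeq start sites (GRCm38.p6) were found for 343 of the 463 genes that fell and for 263 of the 349 that rose, and the window of 250 bases before to 50 after each start was searched. TTCNNNGAA, the palindrome that STAT dimers bind, was in 6.89% of the windows of genes that fell, 7.42% of those of genes that rose and 7.03% of those of all genes tested. TGANTCA was in 8.89%, 8.01% and 6.1%. It takes in the AP-1 motif, which has C or G at the N, but also matches with A or T there. These shares are therefore not those of the AP-1 motif alone. Over the windows of all RefSeq genes the shares were 8.3% for TTCNNNGAA and 7.81% for TGANTCA. Each motif equals its own reverse complement, so that both strands were covered, and a match of one can share bases with a match of the other. The stretches around the matches of 4 genes are shown as examples of each motif, chosen after the matches were seen, with the match in capitals. Other named genes held a match as well, among them *Lamp3* and *Cidec*, which rose.
Socs3: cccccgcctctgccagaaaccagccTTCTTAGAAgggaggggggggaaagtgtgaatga
Fcgr1: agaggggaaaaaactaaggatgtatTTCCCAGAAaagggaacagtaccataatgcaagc
Mt2: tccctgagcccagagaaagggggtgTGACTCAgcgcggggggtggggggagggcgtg
Lif: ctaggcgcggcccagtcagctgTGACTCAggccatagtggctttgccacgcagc
They are written 5′ to 3′ on the strand of the gene. Their positions in GRCm38 are chr11:117969487-117969545 (minus strand), chr3:96294045-96294103 (minus strand), chr8:94172514-94172570 and chr11:4257318-4257371 (both plus strand). *Fcgr1*, *Mt2* and *Lif* fell, and *Socs3* was not called.

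Glucocorticoid-induced genes had a median of -1.06, and 4 of 8 fell and 0 rose. *Fkbp5*, a chaperone that glucocorticoids induce in most tissues, had 159, 292 and 280.0 normalized CPM in IgGL and 55.3, 91.8 and 41.3 in LepL (log2 fold change -1.96, standard error 0.32, adjusted p = 0.0327). The kinase *Sgk1* fell by 1.44 (adjusted p = 0.0433). The metallothioneins *Mt1*, with 254, 626 and 1057 normalized CPM in IgGL and 148, 179.7 and 105 in LepL (-2.16, adjusted p = 0.0391), and *Mt2* (-2.92, adjusted p = 0.0386) bind metal ions and respond to metals and to IL-6 as well as to steroids. In each of the 4 genes IgGL replicate 1 was the lowest of its group and above all LepL libraries. *Tsc22d3*, *Zbtb16*, *Pdk4* and *Errfi1*, the remaining members, had values below 0 and were not called.

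Clock genes were among those that moved. *Nr1d1*, a repressor within the circadian clock, had 51.6, 32.1 and 38 normalized CPM in IgGL and 69.6, 106 and 127 in LepL (log2 fold change 1.31, standard error 0.24, adjusted p = 0.0337), and its paralog *Nr1d2* rose by 1.01. *Arntl*, the activator that they repress, had 9.22, 18.5 and 31.7 normalized CPM in IgGL and 6.76, 5.37 and 5.06 in LepL (log2 fold change -1.79, standard error 0.39, adjusted p = 0.0433). *Dbp*, an output gene of the clock, had 28.3, 8.16 and 3.96 normalized CPM in IgGL and 36.8, 64.6 and 81.6 in LepL, which did not overlap and was not called (2.17, adjusted p = 0.0701). In all, 2 of 14 clock genes rose and 1 fell (median 0.53). The hour at which the mice were euthanized is not given in the labels or methods, so its part in these differences was not tested.

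Alveolar type 2 genes were higher in LepL. Of 15 markers 10 rose and 0 fell (median 1.05). In all 15 the 3 LepL libraries were above the 3 IgGL libraries, beside 16% of all genes tested. *Sftpc* (ENSMUSG00000022097, chromosome 14, 70758389 to 70761521), surfactant protein C, had 7588, 4868 and 3548 normalized CPM in IgGL and 11626, 13974 and 16612 in LepL (log2 fold change 1.40, standard error 0.28, adjusted p = 0.0391). *Sftpa1*, a collectin of surfactant, had 1141, 686 and 633 normalized CPM in IgGL and 1694, 2146 and 2514 in LepL (log2 fold change 1.37, standard error 0.25, adjusted p = 0.0337), and *Lamp3*, of the lamellar bodies, had 275, 132 and 94.8 normalized CPM in IgGL and 488, 484 and 566 in LepL (log2 fold change 1.62, standard error 0.34, adjusted p = 0.0395). IgGL replicate 1 was the highest of its group for each of these. *Etv5* (1.08, adjusted p = 0.0386), a transcription factor of these cells, also rose.

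The lysozyme gene *Lyz1* had 92.2, 29.5 and 24.4 normalized CPM in IgGL and 205, 207 and 304 in LepL (log2 fold change 2.29, standard error 0.46, adjusted p = 0.0386), the largest rise on the list. *Sftpb* (0.59, adjusted p = 0.0632) and *Abca3*, the lipid transporter of lamellar bodies, with 250.3, 189 and 135 normalized CPM in IgGL and 293, 292 and 294 in LepL (0.61, adjusted p = 0.0914), were not called. Summed CPM of the list was 15698, 10684 and 8569 in IgGL and 22824, 26111 and 29819 in LepL. *Sftpc* was the most abundant member in every library. Without IgGL replicate 1, and by DESeq2 on all libraries, all 15 were called higher.

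Type 1 cells line the gas exchange surface. Of 15 of their markers 1 rose, beside 1.78% of all genes tested, and 0 fell (median 0.40). In 8 of the 15 the LepL libraries lay above the IgGL libraries, beside 16% of all genes tested. Without IgGL replicate 1, 7 of them were called higher, beside 1937 of 20435 genes. DESeq2 called 4 of them higher, beside 1205 of 18620 genes. *Ager*, the receptor RAGE, had 2078, 1932 and 1639 normalized CPM in IgGL and 2356, 2529 and 2474 in LepL (0.38, adjusted p = 0.126), and the water channel *Aqp5* had 359.7, 352 and 332 normalized CPM in IgGL and 456, 441 and 474 in LepL (0.39, adjusted p = 0.0611), both without overlap. *Hopx* had 320.0, 283 and 226 normalized CPM in IgGL and 356, 494 and 455 in LepL (0.65, adjusted p = 0.0578). The guidance factor *Sema3e* rose (0.90, adjusted p = 0.0471). Keratins and stress genes of the transitional state between type 2 and type 1 cells had a median of -0.50. Of these 15 genes 1 fell, beside 2.36% of all genes tested, the tight junction gene *Cldn4* (-0.88, adjusted p = 0.0493), and 0 rose. *Krt8*, the keratin that defines that state, had 349, 497 and 665 normalized CPM in IgGL and 373, 346 and 346 in LepL, with overlap (-0.50, adjusted p = 0.157).

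Airway genes were higher in part. Of 12 secretory markers 4 rose and 0 fell (median 0.82). *Cbr2*, a carbonyl reductase of club cells, had 929, 522 and 357 normalized CPM in IgGL and 1399, 2784 and 3327 in LepL (log2 fold change 2.06, standard error 0.40, adjusted p = 0.0365), and *Cyp2f2*, a cytochrome P450 of the same cells, had 405, 165 and 126 normalized CPM in IgGL and 554, 979 and 1183 in LepL (log2 fold change 1.96, standard error 0.44, adjusted p = 0.0447). The defining secretoglobin *Scgb1a1* had 8453, 6889 and 8364 normalized CPM in IgGL and 11100.2, 16901 and 21799.8 in LepL, without overlap and short of the threshold (1.07, adjusted p = 0.0504), and *Scgb3a2* rose (0.96, adjusted p = 0.0386). For *Cbr2*, *Cyp2f2* and *Scgb1a1*, LepL replicate 1 was the lowest of its group and above all IgGL libraries. Of 13 ciliated genes 1 rose, beside 1.78% of all genes tested, the dynein *Dnah5* (0.90, adjusted p = 0.0499), and 0 fell (median 0.63). The basal keratin *Krt5* had 17.6, 5.14 and 19 normalized CPM in IgGL and 16, 42.9 and 54.3 in LepL, with overlap.

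Of 15 endothelial markers 1 fell, beside 2.36% of all genes tested, *Vwf*, which encodes von Willebrand factor (816, 879.5 and 806 to 546, 625 and 461 normalized CPM, log2 fold change -0.62, standard error 0.14, adjusted p = 0.0453), and 0 rose (median -0.11). *Cdh5*, the cadherin of endothelial junctions, had 524, 489 and 674 normalized CPM in IgGL and 451, 496 and 494 in LepL, with overlap. Of 12 capillary genes 1 rose, the apelin receptor *Aplnr* (1.44, adjusted p = 0.0327), and 0 fell, beside 1.78% and 2.36% of all genes tested (median 0.31). *Gpihbp1*, on the same list, had all LepL libraries below all IgGL libraries and was not called (-0.60, adjusted p = 0.0677). Of 5 lymphatic genes 1 fell, the receptor *Flt4* (-0.59, adjusted p = 0.0395), and 0 rose.

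Among lymphoid transcripts the NK cell markers were at low levels, with sums of 9.22 to 47.7 normalized CPM. Those of plasma cell markers were 671 to 1404. Of 8 NK cell markers 2 rose and 0 fell (median 1.74). *Gzma* (granzyme A) had 4.18, 1.58 and 2.19 normalized CPM in IgGL and 10.1, 9.46 and 16.3 in LepL (log2 fold change 2.17, standard error 0.38, adjusted p = 0.0327), and *Klra8*, one of a family of near-identical receptor genes between which reads can be split, had a log2 fold change of 2.70. The defining receptor *Ncr1* had 0.886, 0 and 0.366 normalized CPM in IgGL and 1.40, 1.58 and 3.22 in LepL and was not called (2.30, adjusted p = 0.142). Of 15 T cell, 10 B cell and 10 plasma cell markers 0 were called, with medians of 0.646, 0.997 and 0.557. Over all genes tested 4.14% were called, so these counts are near the background. Without IgGL replicate 1, 7 T cell, 9 B cell and 1 of the plasma cell markers were called higher, beside 1937 of 20435 genes. *Cd3e* had 3.49, 1.06 and 1.46 normalized CPM in IgGL and 5.06, 2.95 and 4.48 in LepL, and the B cell gene *Ms4a1* had 11.9, 4.19 and 5.85 normalized CPM in IgGL and 28.4, 13.4 and 19.4 in LepL (1.48, adjusted p = 0.0632).

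**Figure D4:**
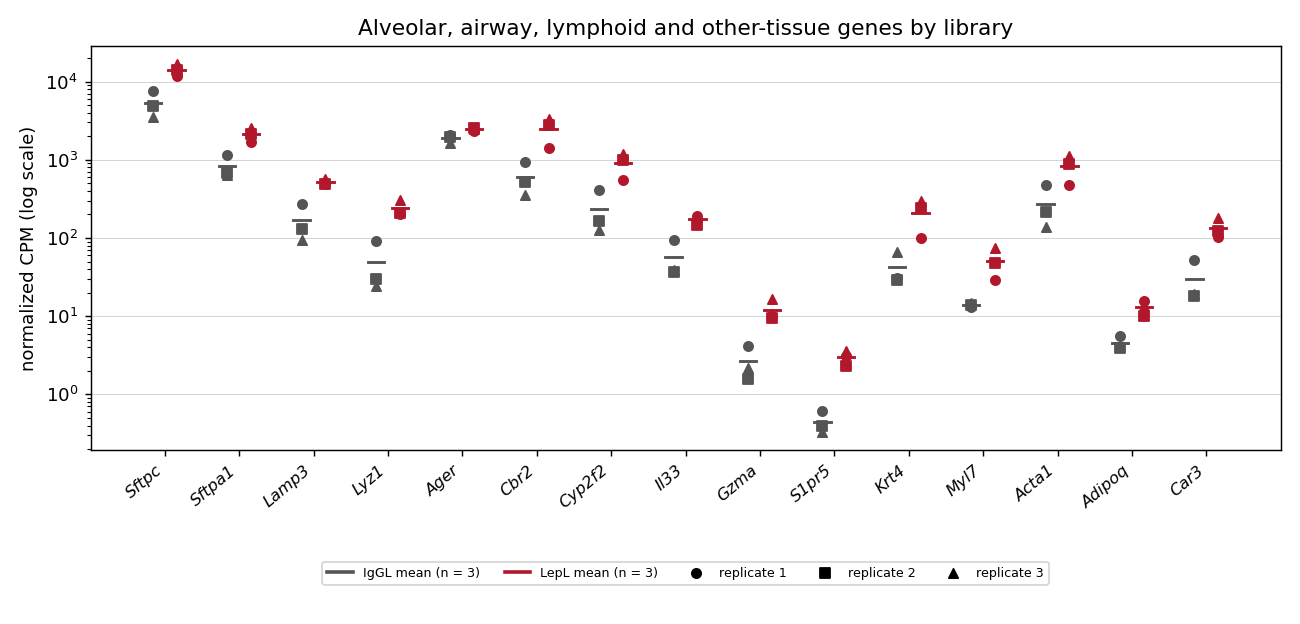
Normalized CPM (y axis, log scale) of 15 alveolar, airway, lymphoid and other-tissue genes in each IgGL (grey) and LepL (red) library, with the mean of 3 libraries as a bar and the replicate number as the symbol. The LepL libraries lie above the IgGL libraries for each gene shown; for *Acta1* the lowest LepL value and the highest IgGL value nearly coincide, at 476 and 473.

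Genes of tissues that lie next to the lung were measured as well, and some of them rose. The squamous keratins *Krt4*, with 31.2, 29.3 and 65.3 normalized CPM in IgGL and 101, 239 and 294 in LepL (log2 fold change 2.34, standard error 0.42, adjusted p = 0.0337), and *Krt13* (2.04, adjusted p = 0.0445), which the esophagus expresses, rose. *Rag1*, a recombinase of thymocytes and early B cells, had no read in the 3 IgGL libraries and 69, 21 and 30 reads in LepL, at least 39.1-fold higher if 3 reads over the IgGL libraries are taken as the limit. Of the 5 esophagus and thymus genes tested 3 rose (median 2.04), with sums of 69.7 to 164 normalized CPM in IgGL and 219.6 to 695 in LepL. *Ptcra*, of thymocytes, was not tested, with no read in IgGL and 7 in LepL.

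Of 10 cardiac muscle genes 3 rose and 0 fell, among them *Myl7*, the light chain of the atria and of the muscle sleeve of pulmonary veins, with 13, 13.9 and 14.8 normalized CPM in IgGL and 29.2, 48.1 and 74.3 in LepL (log2 fold change 1.86, standard error 0.29, adjusted p = 0.0327). Their sum was 179 to 278 in IgGL and 266 to 738 in LepL. Of 8 skeletal muscle genes 0 were called, beside 4.14% of all genes tested (median 1.43, range -1.0 to 2.30), with sums of 284 to 971 and 954 to 2262. Fat genes rose in 3 of 7 and fell in 0, with 5.60, 3.97 and 4.16 normalized CPM in IgGL and 15.6, 10.2 and 13.5 in LepL for *Adipoq*, which encodes adiponectin (log2 fold change 1.51, standard error 0.23, adjusted p = 0.0327), and sums of 51.4 to 129.9 and 219.9 to 319. Muscle sums overlapped between the groups, and those of fat and of esophagus and thymus did not. LepL replicate 1 had the lowest muscle sums and the lowest *Krt4* and *Krt13* of its group. The summed airway secretory markers were likewise lowest in LepL replicate 1 within that group, whereas the summed T cell and B cell markers were highest in it. The part of these tissues in the genes that rose was not tested. Of 5 hemoglobin and other erythroid genes 0 were called, beside 4.14% of all genes tested. Their sums were 860 to 6521 in IgGL and 1764 to 2214 in LepL and overlapped.

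**Figure D5:**
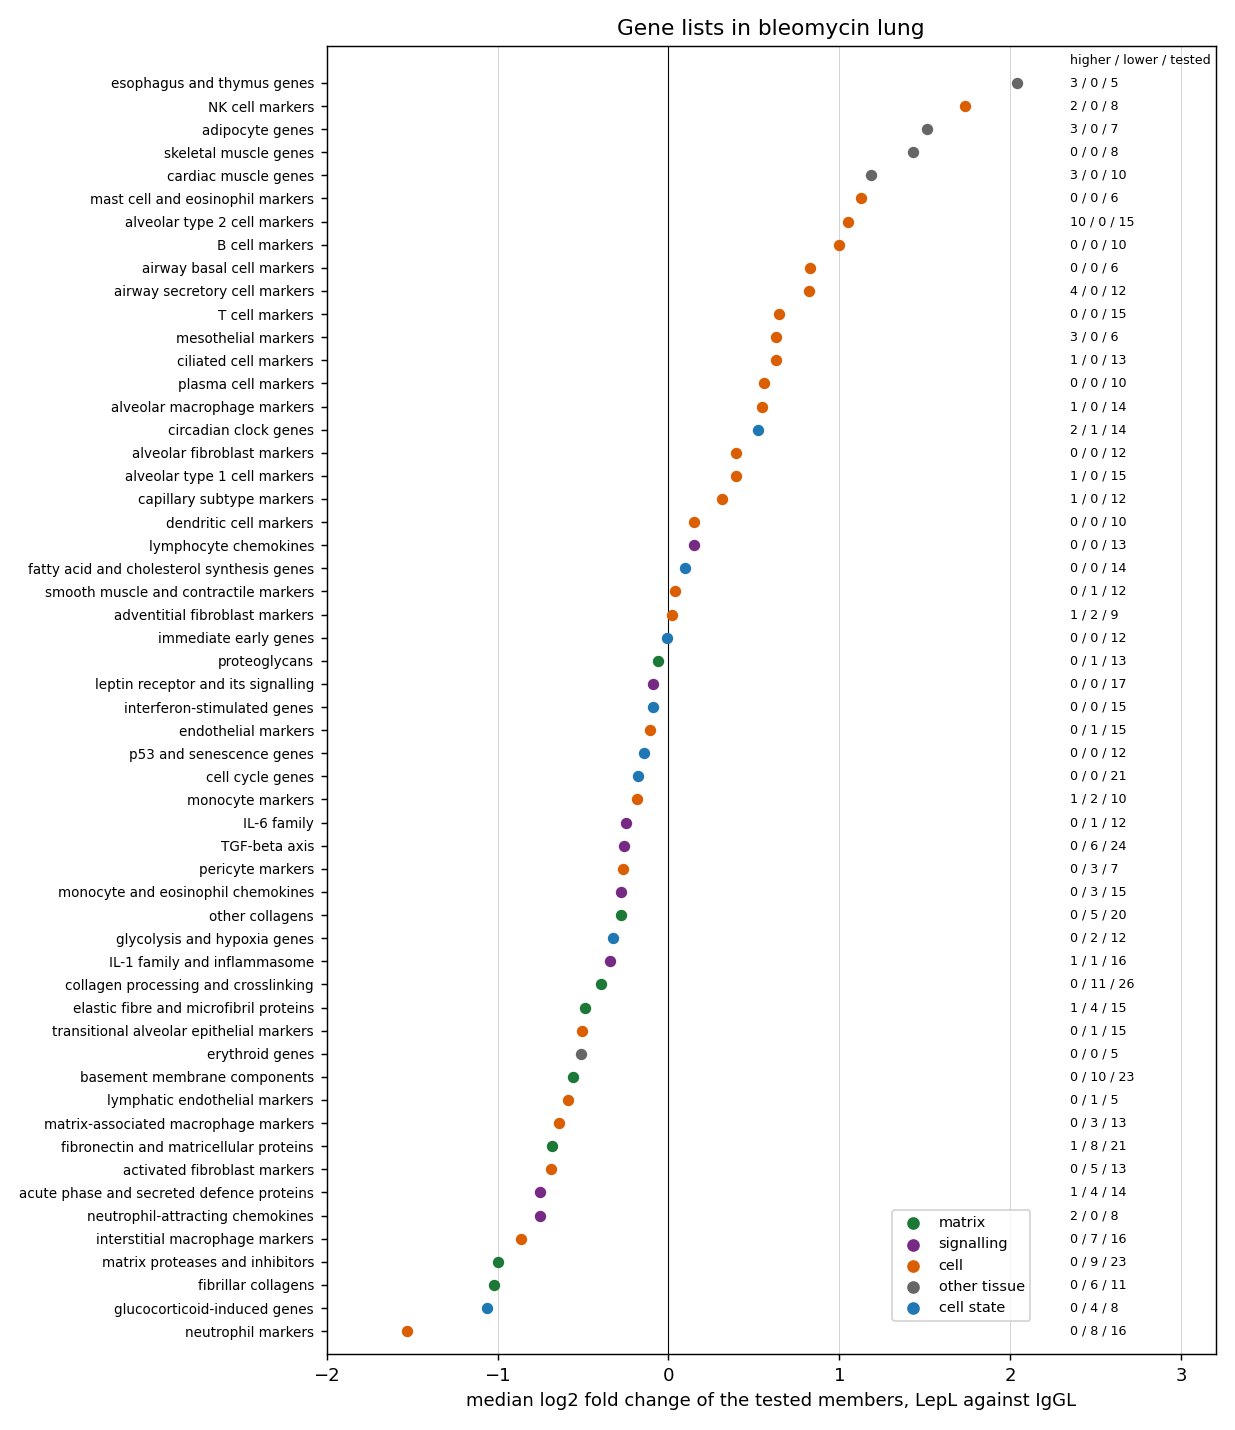
Each point is the median log2 fold change (x axis) of the tested members of a gene list in LepL against IgGL, coloured by kind of list, with the numbers of members called higher, called lower and tested at the right. Medians run from -1.53 for neutrophil markers to 2.04 for esophagus and thymus genes, and the median of all genes tested is 0.00.

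Lists of cell state were mostly not called. Of 21 cell cycle genes, 12 p53 and senescence genes, 15 interferon-stimulated genes, 12 immediate early genes and 14 genes of fatty acid and cholesterol synthesis, 0 were called in either direction. Over all genes tested 4.14% were called, so that 0 in lists of this size is near the background. DESeq2 called 2 interferon-stimulated genes higher and 2 lower, 0 and 2 p53 and senescence genes, and 2 and 1 synthesis genes. *Cdkn1a*, which encodes the cell cycle inhibitor p21, had 357, 479 and 659 normalized CPM in IgGL and 346, 268 and 226 in LepL, without overlap and not called (-0.83, adjusted p = 0.0694). In glycolysis, the glucose transporter *Slc2a1* (-1.44, adjusted p = 0.036) and the enolase *Eno1* (-1.0, adjusted p = 0.0464) fell, 2 of 12, while *Ldha*, lactate dehydrogenase, had 487, 556 and 713 normalized CPM in IgGL and 486, 459.8 and 458 in LepL (-0.32, adjusted p = 0.201).

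Beyond the lists, the 15 genes with the largest falls and the 15 with the largest rises were named by a rule on size and level. *Pappa*, a protease that frees insulin-like growth factors from a binding protein, had 13.4, 42.4 and 63.7 normalized CPM in IgGL and 6.40, 7.89 and 3.35 in LepL (log2 fold change -2.76, standard error 0.53, adjusted p = 0.0358). *Ereg* (epiregulin), a ligand of the EGF receptor, had 18.1, 49.9 and 81.5 normalized CPM in IgGL and 8.03, 9.55 and 5.32 in LepL (log2 fold change -2.71, standard error 0.48, adjusted p = 0.033). The stefin genes *Stfa2l1*, with 2.16, 5.42 and 4.89 normalized CPM in IgGL and 0, 0.613 and 0.126 in LepL, and *Cstdc4*, with 2.74, 4.28 and 5.12 normalized CPM in IgGL and 0.327, 0.321 and 0.252 in LepL, and the serpin gene *Serpina3m* (-2.76, adjusted p = 0.0327) belong to clusters of near-identical genes between which reads can be split, so their values are uncertain. *Kcnt1*, a sodium-activated potassium channel, had 5.60, 8.08 and 3.82 normalized CPM in IgGL and 0.62, 1.26 and 0.882 in LepL (log2 fold change -2.66, standard error 0.38, adjusted p = 0.0327). The other falls were *Mt2*, *Fst*, *Arg1* and *Adamts4*, given above, and *Dpep3*, *Sh2d5*, *Dspp*, *Pde10a* and *Cdh6*, with log2 fold changes from -2.73 to -2.41.

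Among the 15 largest rises many genes were expressed at a low level. *Ackr4*, a scavenging chemokine receptor, had 1.02, 0.389 and 0.432 normalized CPM in IgGL and 2.91, 6.66 and 7.10 in LepL (log2 fold change 3.16, standard error 0.49, adjusted p = 0.0327). *S1pr5*, a sphingosine 1-phosphate receptor of NK cells, had 0.609, 0.389 and 0.333 normalized CPM in IgGL and 3.10, 2.28 and 3.63 in LepL (log2 fold change 2.74, standard error 0.38, adjusted p = 0.0327). *Car3*, a carbonic anhydrase of fat and muscle, had 51.7, 17.9 and 19.3 normalized CPM in IgGL and 104, 124 and 178 in LepL (log2 fold change 2.19, standard error 0.40, adjusted p = 0.0337). *Lmod3*, a leiomodin of muscle, and *Aqp7*, the glycerol channel of fat cells, rose by 2.50 and 2.47. *Tmem121b* (3.63, adjusted p = 0.0327), *Asgr1* (3.53, adjusted p = 0.0461), *Ces1h* (2.98, adjusted p = 0.035), *Cdh16* (2.48, adjusted p = 0.0327), *Bex2* (2.37, adjusted p = 0.035), *Clstn3* (2.29, adjusted p = 0.0365) and *Chad* (2.18, adjusted p = 0.0327) completed the list with *Klra8*, *Krt4* and *Lyz1*. The highest value among these 7 was that of *Bex2* in LepL replicate 3, 21.8 normalized CPM.

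Without strand, reads that fall where annotated genes overlap may belong to either gene. Of the genes above, *Timp1* overlaps *Syn1*, *Nr1d1* overlaps *Thra*, *Stat3* overlaps *Stat5a*, *Sh2d5* overlaps *Kif17*, *Ackr4* overlaps *Acad11* and *Chad* overlaps *Acsf2* in the annotation of the table.

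The same antibody was compared with IgG in the folic acid-injured kidney of other mice, which share no library with the lung, and the difference of the 2 effects was tested directly. The organ, the injury and its duration differ together and cannot be told apart. Of 21488 genes in the fit of 12 libraries, 1531 (7.12%) differed at an adjusted p under 0.05. Of the 463 genes that fell in lung, 129 had a lung effect below that in kidney and 0 one above it, and of the 349 that rose, 155 had a lung effect above that in kidney and 0 one below it. The lung calls are part of that difference, so a count in their own direction is not independent of them. *Col1a1* had log2 fold changes of -1.21 in lung and -1.21 in kidney, and their difference was not called (adjusted p = 1). *Eln* had -1.52 against -0.24 (difference -1.27, adjusted p = 0.0396). The steroid-induced *Fkbp5* had -1.96 against 0.18 (difference -2.14, adjusted p = 0.0162), and *Sgk1* had -1.44 against 0.22 (difference -1.66, adjusted p = 0.0238). *Gpnmb* had -0.22 against -2.78 (difference 2.56, adjusted p = 0.00598), and *Il33* 1.64 against -0.75 (difference 2.39, adjusted p = 0.00878).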

How the data were processed

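RNA-seq of the 6 lung libraries was taken from a table of the whole series that the authors deposited, with read counts per Ensembl gene and FPKM (fragments per kilobase of gene length and of library depth) for each library. Libraries were poly(A)-enriched and non-directional. The submitters' processing notes name GRCm39 and DESeq2, and the aligner and counter are not given in the sources used here. The FPKM values were not tested. Columns with the authors' own fold changes and p-values were not used. No column was left without a sample. For LepL replicate 3 the name in the table has an added number, and the sources do not say whether it stands for a repeated run.

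Counts were fitted with edgeR 4.0.16 (R 4.3.3, limma 3.58.1) by quasi-likelihood with TMM factors, after filterByExpr (minimum count 10, minimum total 15), on the 6 lung libraries alone, without covariates. All libraries carry the same batch label. Alternatives included DESeq2 1.42.0, other scalings and filters, and each library left out. The difference from kidney was an interaction term over 12 libraries, called at an adjusted p under 0.05. The scripts were tested on simulated data.

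The groups came from the titles and tissue labels. A description line of all 6 lung libraries, the IgG ones included, names kidney and the antibody, and the titles and tissue labels were used. Replicates of a group differed by more than sampling noise (chi-square per gene 17.8 to 87.4). The named genes were the 15 largest rises and falls among called protein-coding genes with a mean level of 1 CPM or more whose groups did not overlap, the key members of each of 55 lists (690 genes, 680 tested), and up to 3 further called members per list. Outside this rule, *Col27a1*, *Col4a2*, *Loxl1*, *Loxl3*, *Smad4*, *Tgfbr2*, *Tsc22d3*, *Zbtb16*, *Pdk4*, *Errfi1* and *Chil3* were chosen after their values were seen. The comparison and the lists were chosen with earlier results of these data known.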

Additional observations from a re-analysis of the deposited data

Results flagged for a closer look

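The lung effect of the antibody differed from its kidney effect, by the interaction test over 12 libraries, for 13 of the genes with the largest changes. These genes were chosen for a large change in lung, which enters the difference. The difference, lung minus kidney on the log2 scale, was -5.15 for *Arg1* (edgeR, adjusted p = 0.046), -5.20 for *Serpina3m*, -4.60 for *Kcnt1*, -2.67 for *Fst* and -2.45 for *Pappa*. *Kcnt1*, which fell in lung, had a kidney log2 fold change of 1.95 (adjusted p = 0.00198). *Serpina3m*, whose reads can be split with near-identical genes, had one of 2.45 that did not pass the threshold (adjusted p = 0.205). Among genes that rose in lung the difference was 6.31 for *Tmem121b*, 5.02 for *Klra8*, 3.75 for *Chad*, 3.30 for *Lyz1*, 3.06 for *Car3*, 2.53 for *Clstn3*, 2.24 for *Cdh16* and 1.90 for *Aqp7*, with adjusted p-values from 0.00621 for *Cdh16* to 0.032 for *Klra8*. In lung itself *Tmem121b* rose by 3.63, *Klra8* by 2.70 and *Chad* by 2.18. Their kidney log2 fold changes of -2.67, -2.32 and -1.56 were not called (edgeR, adjusted p = 0.159, 0.199 and 0.0728). Those of *Lyz1*, *Car3* and *Clstn3* were also below 0, and those of *Cdh16* and *Aqp7* above 0. Reads of *Klra8* can be split with near-identical genes. Organ, injury and day differ together between the 2 experiments and cannot be told apart.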

How the results depend on the processing

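The counts of 349 genes higher and 463 lower changed with the settings. They were 1205 and 1089 with DESeq2, 1515 and 1173 with no filter on low counts, 1069 and 998 in the fit of 12 libraries, and 0 and 0 with edgeR's glmTreat at the same fold threshold, where 1068 and 833 genes had an unadjusted p under 0.05. With 1 library left out they ranged from 0 to 1937 higher and from 0 to 1602 lower, and the count of genes that differed between lung and kidney from 352 to 3763. Genes tested, samples and residual degrees of freedom change with these settings. List medians with 1 library left out ranged from -0.187 to -0.0121 for leptin signalling, -1.69 to -1.13 for neutrophils, 1.34 to 2.25 for NK cells, 1.80 to 2.44 for esophagus and thymus and 0.40 to 0.73 for the clock. Over all alternatives, other medians given above that moved by more than 1.5 times or turned sign were those of contractile genes (-0.10 to 0.19), other collagens (-0.43 to -0.15), elastic fibres (-0.57 to -0.24), the TGF-beta axis (-0.36 to -0.13), monocyte chemokines (-0.34 to -0.11), endothelial (-0.107 to -0.00947), alveolar fibroblast (0.25 to 0.78), transitional epithelial (-0.71 to -0.32) and alveolar macrophage markers (0.32 to 0.78). Medians of T cell (0.37 to 1.16), B cell (0.61 to 1.63) and plasma cell markers (-0.056 to 0.966) moved so too. Those of neutrophil-attracting genes (-0.98 to 0.025) and capillary genes (0.19 to 0.45) did as well. Direction turned when a library was left out for *Ccr2* (-0.196 to 0.176), *Cthrc1* (-0.423 to 0.14), *Lcn2* (-0.194 to 0.226) and *Mmp12* (-0.191 to 1.02), none of them called. Values for low genes are limited by 1 read being worth 0.0257 to 0.0334 CPM.

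Replicate numbers are shared by the 2 groups. The correlations of same-numbered libraries, taken on deviations from the group mean, were -0.0482, 0.116 and -0.0968. No pairing by number was evident, and 3 such values cannot exclude it. Not every library correlated best with its own number. With the replicate block 1 gene was higher and 3 were lower, and 1257 differed between lung and kidney.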

Other observations

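Receptors and growth factors outside the lists were also called, chosen after their values were seen. *Itga5*, the fibronectin-binding integrin subunit, had 155, 391 and 491 normalized CPM in IgGL and 123, 102 and 92.2 in LepL (-1.71, adjusted p = 0.0395). *Sphk1*, which makes sphingosine 1-phosphate, had 81.1, 156 and 186 normalized CPM in IgGL and 43.9, 66.1 and 50.7 in LepL (-1.39, adjusted p = 0.0386), and its receptor *S1pr3* had 69.9, 142 and 199 normalized CPM in IgGL and 44, 45.9 and 47.7 in LepL (-1.58, adjusted p = 0.0368). The LepL libraries lay below the IgGL libraries for these 3 genes, with IgGL replicate 1 the lowest of its group.

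The fibroblast growth factor *Fgf2* (-1.25, adjusted p = 0.0451) and the receptor *Fgfr1* (-1.21, adjusted p = 0.0327) fell. *Fgfr2*, a paralog of *Fgfr1*, had 79.8, 58.2 and 45.6 normalized CPM in IgGL and 112, 142 and 158 in LepL and rose (1.17, adjusted p = 0.0327). *Met*, the receptor of hepatocyte growth factor, rose (0.99, adjusted p = 0.0327). The IL-4 receptor chain *Il4ra* (-1.12, adjusted p = 0.035) and the transcription factor *Myc* (-1.12, adjusted p = 0.0337) fell, and *Igfbp6*, an insulin-like growth factor binding protein (1.40, adjusted p = 0.0337), rose.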
